A study of Mus musculus with 12 samples.

Results

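The heat shock proteins and chaperones were taken as the genes whose symbol starts with Hspa, Hspb, Hspd1, Hspe1, Hsph1, Hsp90, Dnaj or Cct followed by its number or letter, with the brightest probe set where a symbol had several. This gave 74 genes of 18820 measured, of which 36 were assigned by textbook knowledge to the cytosol, 12 to the endoplasmic reticulum (ER), 10 to mitochondria and 16 to other or mixed places (nucleus, endosomes, synaptic vesicles, cilia). By family they were 42 J proteins, 9 Hsp70 proteins, 9 subunits or relatives of the cytosolic chaperonin CCT, 6 small heat shock proteins, 3 Hsp110 proteins, 2 Hsp90 proteins, both subunits of the mitochondrial chaperonin, and Hspb11, which carries the name only. Of 81 protein-coding genes whose symbol matches, 6 (Dnajb8, Dnajc1, Dnajc14, Hspa1a, Hspa1b and Hspb2) were read only by probe sets that carry several symbols, and Hsp90ab1 had no probe set named here.

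Chaperones bind unfolded protein and let it fold or refold. Hsp70 proteins do so in cycles of ATP hydrolysis that J proteins start and that Hsp110 proteins and other exchange factors reset, Hsp90 proteins act on near-folded clients such as kinases and steroid receptors, small heat shock proteins hold unfolded protein and are abundant in striated muscle, and ring-shaped chaperonins enclose their clients. Each compartment has its own set, and the sets are induced by different pathways: heat shock factor 1 for the cytosol, the unfolded protein response for the ER, and a separate stress response for mitochondria.

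The 4 groups, of 3 arrays each, were skeletal muscle of knockout (Tk2-/-) and of wild-type (Tk2+/+) mice and hearts of the same 2 genotypes, all on the C57BL/6 background and 11 days old. Tk2 encodes thymidine kinase 2, a mitochondrial enzyme that supplies nucleotides for mitochondrial DNA, and the knockout is present in every cell of the animal. Skeletal muscle was taken from the hind limb, and the litters came from heterozygous parents. Per the study's methods the 3 arrays of a genotype in a tissue stood for 3 separate animals. Each array (Affymetrix Mouse Gene 1.1 ST) gave 1 linear intensity, called signal here, per probe set.

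The Tk2-/- heart arrays were dimmer as a whole, with a mean signal of 146.7 to 168.4, against 201.8 to 252.4 on the other 9 arrays. In heart 49.0% of all genes were called lower in Tk2-/- mice on the deposited values, and the median log2 fold change of all genes was -0.28. The main heart results are for this reason given both on the deposited values and after quantile normalization, which here means that the arrays of 1 tissue were brought to 1 distribution. Tk2 itself had 64.7, 44.1 and 48.7 in Tk2-/- muscle, against 62.9, 68.5 and 63.1 in Tk2+/+ muscle, so its arrays overlapped (adjusted p = 0.208). In heart it had 30.1, 46.3 and 31.7 in Tk2-/- mice, against 70.2, 73.6 and 81.8 in Tk2+/+ mice (log2 fold change -0.82 on deposited values, -0.37 after quantile normalization). Whether its probes lie in the deleted part is not known here. Summed signal of 15 genes of skeletal muscle fibres was 80611 to 86367 in Tk2-/- muscle and 71632 to 96107 in Tk2+/+ muscle, with 0 of 15 called either way, and that of 11 cardiomyocyte genes was 46445 to 51362 in Tk2-/- heart and 56626 to 64138 in Tk2+/+ heart. Within the cardiomyocyte list Myl7 spread widely inside each group, at 1966, 144 and 1882 in Tk2-/- heart and 13.3, 580 and 2641 in Tk2+/+ heart. Nppa had 5422, 3543 and 5157 in Tk2-/- heart and 705, 2826 and 5742 in Tk2+/+ heart. What part this spread had in the heart results was not tested. Genes of other cell types moved with genotype too. In Tk2-/- muscle 7 of 9 fibroblast genes were lower and 1, Pdgfra, higher (sum 7839 to 9748, against 14420.3 to 16614 in Tk2+/+ muscle), 3 of 5 satellite cell genes were lower (sum 390.2 to 705, against 711 to 1127 in Tk2+/+ muscle) and 3 of 4 adipocyte genes higher and 1 lower (sum 2844 to 3577, against 1695 to 2100.4 in Tk2+/+ muscle). In Tk2-/- heart 9 of 9 fibroblast, 8 of 8 macrophage and leucocyte, 7 of 8 endothelial and 6 of 7 smooth muscle and pericyte genes were lower on deposited values. After quantile normalization it was 7, 7, 4 and 2 of them, with 1 fibroblast, 1 endothelial and 1 smooth muscle gene higher. Their part in the chaperone results was not tested. In whole tissue, fewer cells of a type and less RNA per cell cannot be told apart.

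In skeletal muscle 13 chaperone genes were higher and 8 lower in Tk2-/- mice at an adjusted p under 0.05 (limma, Benjamini-Hochberg over all genes), which is 17.6% and 10.8% of the 74. Over all genes the shares were 11.6% higher and 10.9% lower. By the methods' t-test 0 were higher and 0 lower after adjustment (11 and 9 at an unadjusted p under 0.05). All 3 Tk2-/- arrays lay above all 3 Tk2+/+ arrays for 14 of the 74 and below them for 12, beside 16.9% and 18.8% of all genes. The median log2 fold change of the 74 was -0.02, the same as over all genes. The 13 that rose were the small heat shock proteins Hspb1 and Hspb7, the CCT subunits Cct2 and Cct4, the mitochondrial Hsp70 Hspa9 and the J proteins Dnaja2, Dnajb6, Dnajb7, Dnajb9, Dnajb12, Dnajc2, Dnajc3 and Dnajc21, by 0.32 to 0.96 on the log2 scale. The 8 that fell were the ER chaperones Hspa5, Hsp90b1 and Hspa13, the small heat shock protein Hspb3 and the J proteins Dnajb14, Dnajc12, Dnajc24 and Dnajc27, by 0.37 to 0.81. After quantile normalization, under which 14.5% of all genes were higher and 14.6% lower, 9 of the 13 kept their call and the 8 that fell were joined by 9 more (17 in all), among them Hspa8, Hsp90aa1, Dnaja1, Cct5 and Cct6a. The calls of Cct2, Cct4, Dnajc3 and Hspa9 were lost. Of the 37 chaperone genes with a mean signal above 256, 11 were higher (29.7%) and 2 lower (5.4%) in muscle on deposited values, beside 24.8% and 12.4% of all genes above that level. After quantile normalization 7 of the 37 were higher (18.9%) and 10 lower (27.0%), beside 24.0% and 24.9%. Without Tk2-/- muscle replicate 2 the 13 higher calls became 8.

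**Figure D1:**
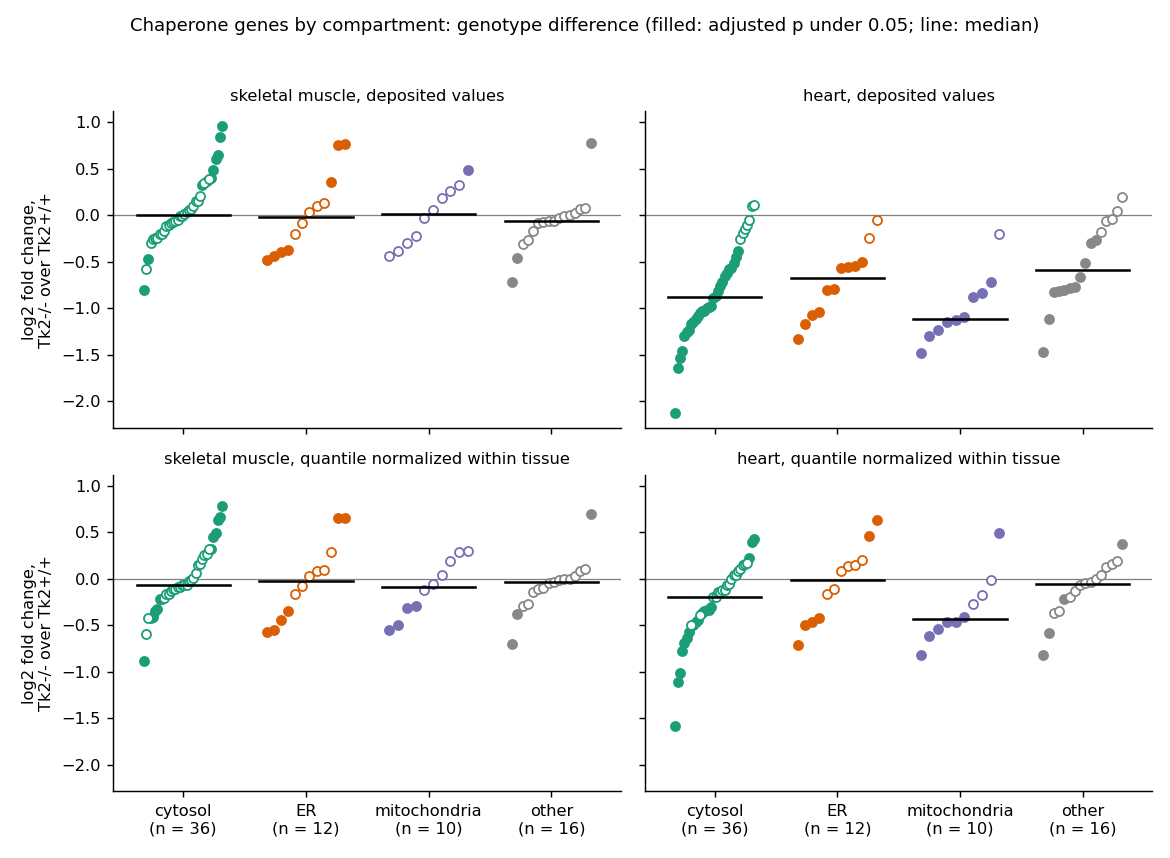
Log2 fold change of Tk2-/- over Tk2+/+ mice (vertical axis) for the 74 chaperone genes, by compartment, in skeletal muscle (left) and heart (right), on deposited values (top) and after quantile normalization within the tissue (bottom). Each point is 1 gene, filled where the adjusted p was under 0.05, and the line is the median. In muscle the compartment medians lie close to 0, and in heart on deposited values they lie at -0.88 for cytosol, -0.68 for ER and -1.12 for mitochondria, which become -0.19, -0.02 and -0.43 after quantile normalization.

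In heart 59 of the 74 were lower in Tk2-/- mice on the deposited values and 0 were higher (0 in limma also at an unadjusted p under 0.05, 1 with an offset of 1 in place of 16, and by the methods' t-test 1 before and 0 after adjustment). These 59 are 79.7% of the list, beside 49.0% of all genes called lower and 1.99% called higher. By the methods' t-test, 372 of all 18820 genes were higher in heart before adjustment and 217 after it. Of all genes above the signal of 256, 84.8% were called lower, and 34 of the 37 chaperone genes were (91.9%). On 63 of the 74 every Tk2-/- heart array lay below every Tk2+/+ heart array, beside 53.3% of all genes, and on 1 every one lay above, beside 3.16%. After quantile normalization 28 of the 74 were lower (37.8%), beside 15.9% of all genes, and 7 were higher (9.5%), beside 16.1%. Of the 37 brighter ones 17 were lower (45.9%) and 5 higher (13.5%), beside 23.7% and 21.7% of brighter genes. The median log2 fold change of the 74 was then -0.16, beside 0.01 over all genes.

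Among the compartments, the heart shares after quantile normalization ran from 6 of 10 mitochondrial genes lower and 1 higher, through 15 of 36 cytosolic genes lower and 3 higher, and 4 of 12 ER genes lower and 2 higher, to 3 of 16 others lower and 1 higher. Beside these stand 15.9% of all genes lower and 16.1% higher (23.7% and 21.7% of genes above 256). Mean log2 signal on the heart arrays was 8.24 to 9.51 for the mitochondrial genes and 6.06 to 6.73 for the 16 others. What part the signal level had in this order was not tested. In skeletal muscle on deposited values, 8 of the 36 cytosolic genes were higher and 2 lower, 3 of the 12 ER genes higher and 4 lower, 1 of the 10 mitochondrial genes higher and 0 lower (3, Dnajc11, Dnajc15 and Dnajc19, at an unadjusted p under 0.05 in limma, while the methods' t-test passed none of the 74 in muscle after adjustment), and 1 of the 16 others higher and 2 lower. The ER set thus held calls in both directions in muscle under both treatments of the data (2 higher and 4 lower after quantile normalization), whereas the mitochondrial set had 0 higher and 4 lower after it. Of all genes, 11.6% were higher and 10.9% lower in muscle on deposited values, and 14.5% and 14.6% after quantile normalization.

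The small heat shock proteins split by member in skeletal muscle. Hspb1 (known as Hsp25 in the mouse, which binds unfolded protein and actin) had a signal of 3766, 3375 and 2559 in Tk2-/- muscle, against 1542, 1993 and 1425 in Tk2+/+ muscle. All 3 Tk2-/- arrays lay above all 3 Tk2+/+ arrays, and the log2 fold change was 0.96 ± 0.15 (SE, limma adjusted p = 0.000359; 0.78 after quantile normalization). In heart it had 828, 1087 and 1023 in Tk2-/- mice, against 1525, 1582 and 1740.3 in Tk2+/+ mice, which gave -0.72 on deposited values (adjusted p = 0.000934) and -0.05 after quantile normalization (adjusted p = 0.759). Hspb7, which is expressed in heart and skeletal muscle and binds filamin C, followed the same course. It had 3139, 2911 and 2195 in Tk2-/- muscle, against 1261, 1941 and 1403 in Tk2+/+ muscle, without overlap (0.84 ± 0.16, adjusted p = 0.00109), while in heart its log2 fold change was -0.58 on deposited values and 0.00 after quantile normalization.

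Hspb3, which forms complexes with Hspb2 in muscle, went the other way. It had 298, 203 and 288 in Tk2-/- muscle, against 484, 563 and 372 in Tk2+/+ muscle, and 33.8, 57.0 and 31.2 in Tk2-/- heart, against 180.3, 116 and 145 in Tk2+/+ heart. The Tk2-/- arrays were the lower ones in both tissues, with no overlap. The log2 fold change was -0.81 ± 0.20 in muscle (adjusted p = 0.00771) and -1.54 ± 0.20 in heart (adjusted p = 1.44e-05), and -0.88 and -1.01 after quantile normalization, both past the threshold. Hspb6 (Hsp20, a small heat shock protein of cardiac, skeletal and smooth muscle) had 4601, 3513 and 3133 in Tk2-/- muscle, against 3866, 5312 and 4171 in Tk2+/+ muscle, which overlap (adjusted p = 0.547). In Tk2-/- heart it had 1352, 2852 and 1274, against 5044, 5614 and 5321 in Tk2+/+ heart. Replicate 2 of Tk2-/- heart stood above the other two and still below every Tk2+/+ array, and the log2 fold change was -1.64 ± 0.24 (adjusted p = 3.66e-05; -1.11 after quantile normalization).

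Hspb8 (Hsp22, which works with Bag3 in the removal of damaged filamin) had 2033, 1485 and 1424 in Tk2-/- muscle, against 1272, 1898 and 1301 in Tk2+/+ muscle, with overlap (adjusted p = 0.637). In heart its log2 fold change was -1.12 on deposited values and -0.44 after quantile normalization (adjusted p = 0.024). Hspb9, a testis member, was dim in every group, at 11.7 to 31.4. Hspb2 and Cryab, small heat shock protein genes without a single-gene probe set in the measurement, share 2 probe sets, of which the brighter had 3294, 2944 and 2895 in Tk2-/- muscle, against 2081, 3028 and 2214 in Tk2+/+ muscle (0.33, adjusted p = 0.103 over all probe sets).

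**Figure D2:**
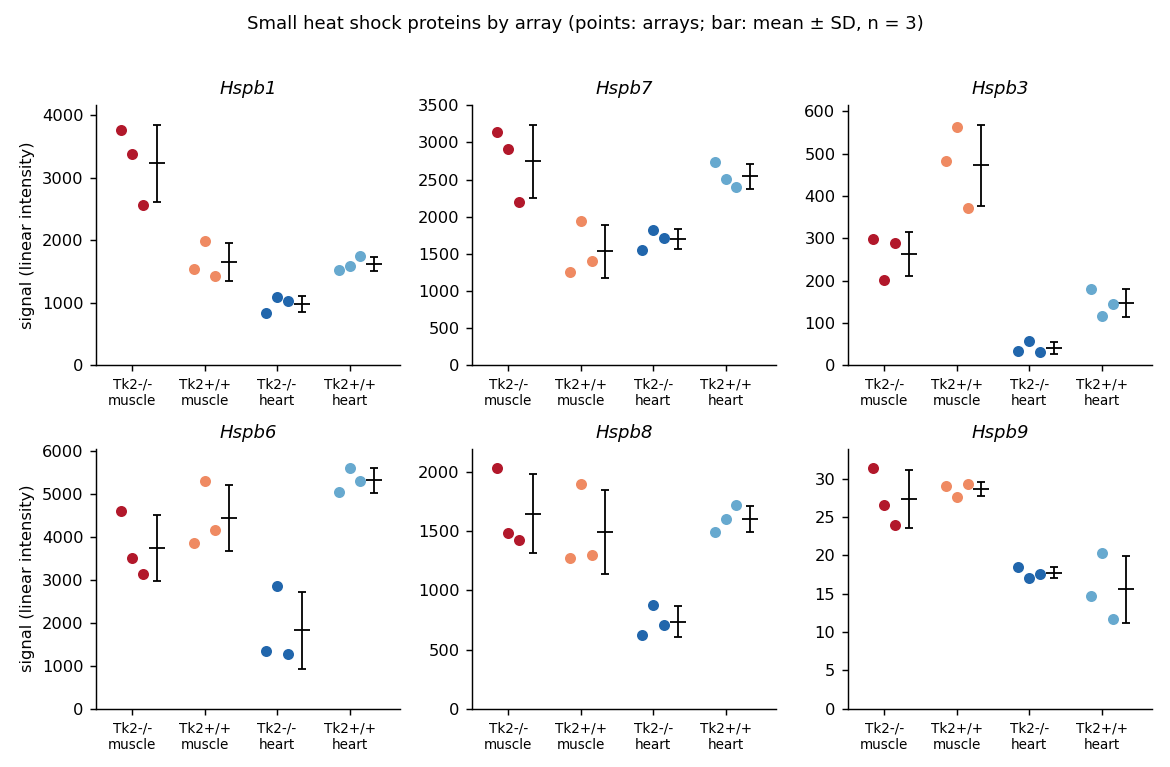
Signal (linear intensity, vertical axes from 0) of the 6 small heat shock proteins on each of the 12 arrays, by tissue and genotype, with the mean ± SD of the 3 arrays of a group. Hspb1 is highest in Tk2-/- muscle, while Hspb7 is higher in Tk2-/- than in Tk2+/+ muscle and overlaps Tk2+/+ heart. Hspb3 is lower in Tk2-/- mice in both tissues, and Hspb6 has 1 Tk2-/- heart array, at 2852, above the rest of its group.

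The ER members held changes in opposite directions. The lumenal chaperones with the known ER stress response element near their start are shown because they fell together in both tissues, while Dnajc3, which has the same element, was called higher in muscle. Sequences are from RefSeq (GRCm38.p6), each from 5′ to 3′ on the strand of the gene, and capitals mark matches to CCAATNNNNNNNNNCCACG on either strand.
Hspa5, chr2:34771995-34772073 (+), 95 to 17 bases before the start: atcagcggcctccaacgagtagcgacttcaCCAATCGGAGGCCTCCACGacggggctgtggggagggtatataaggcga
Hsp90b1, chr10:86705507-86705686 (-), 242 to 63 bases before the start, with 1 match on each strand and no overlap: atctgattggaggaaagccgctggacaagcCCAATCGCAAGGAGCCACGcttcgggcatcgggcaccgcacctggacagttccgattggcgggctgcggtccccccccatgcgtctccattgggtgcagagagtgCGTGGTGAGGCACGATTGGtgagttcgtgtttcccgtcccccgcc
Dnajc3, chr14:118937797-118937875 (+), 135 to 57 bases before the start: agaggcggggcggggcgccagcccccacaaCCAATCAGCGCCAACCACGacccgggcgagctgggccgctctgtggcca
Among windows of 300 bases around gene starts (250 before), 0.119% of 32851 hold a match, and of the 61 chaperone genes with a window these 3 do. A match is a description of letters and says nothing of binding.

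Hspa5 encodes BiP, the Hsp70 of the ER lumen. Its signal was 891, 949 and 818 in Tk2-/- muscle, against 1114, 1328 and 1079.7 in Tk2+/+ muscle, and 939, 1129 and 939 in Tk2-/- heart, against 2093, 2222 and 2014 in Tk2+/+ heart. The groups did not overlap in either tissue. The log2 fold change was -0.40 ± 0.11 in muscle (adjusted p = 0.0167) and -1.07 ± 0.11 in heart (adjusted p = 2.84e-06), and after quantile normalization it was -0.55 and -0.42, both past the threshold. Hsp90b1 encodes Grp94, the Hsp90 of the ER lumen. It had 589, 611 and 542 in Tk2-/- muscle, against 854, 841 and 696 in Tk2+/+ muscle, again without overlap (-0.44 ± 0.12, adjusted p = 0.012; -0.57 after quantile normalization). In Tk2-/- heart it had 620.3, 708 and 526, against 1372, 1388 and 1447 in Tk2+/+ heart (-1.17 on deposited values, -0.49 after quantile normalization, adjusted p = 0.000757). Hspa13 (Stch, a microsomal Hsp70 relative) had 94.9, 88.8 and 80.8 in Tk2-/- muscle, against 125, 157 and 109 in Tk2+/+ muscle, and 58.3, 75.2 and 57.1 in Tk2-/- heart, against 185, 186 and 178 in Tk2+/+ heart. It was lower in both tissues without overlap, at -0.48 ± 0.12 in muscle (adjusted p = 0.00995) and -1.33 ± 0.12 in heart (-0.71 after quantile normalization). On deposited values the muscle calls of Hspa5 and Hsp90b1 were lost when single arrays were left out, Hspa5 without Tk2+/+ muscle replicate 2 or Tk2-/- muscle replicate 3 (adjusted p up to 0.0744), and also with an offset of 1 in place of 16 (0.0556), and Hsp90b1 without Tk2+/+ muscle replicate 1 or Tk2-/- muscle replicate 3 (up to 0.0582).

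The J proteins of the ER went either way in muscle. Dnajb9 (ERdj4, a cochaperone of BiP and a target of the unfolded protein response) had 782, 819 and 634 in Tk2-/- muscle, against 363, 543 and 410.0 in Tk2+/+ muscle. The Tk2-/- arrays were all higher (0.75 ± 0.15, adjusted p = 0.00151; 0.65 after quantile normalization). In heart it had 535, 519 and 536 in Tk2-/- mice, against 548, 474 and 641 in Tk2+/+ mice, which overlap. There the log2 fold change was -0.05 on deposited values (adjusted p = 0.81) and 0.63 after quantile normalization (adjusted p = 0.00147), so the call in heart exists only after scaling. Dnajb12, a J protein of the ER membrane used in the degradation of membrane proteins, had 701, 754 and 665 in Tk2-/- muscle, against 398, 477 and 360.0 in Tk2+/+ muscle (0.76 ± 0.10, adjusted p = 8.78e-05). In heart it averaged 245.8 ± 4.69 in Tk2-/- mice, against 295 ± 10.7 in Tk2+/+ mice (SD, n = 3 each), the Tk2-/- arrays being lower without overlap (-0.25, adjusted p = 0.0619 on deposited values, and 0.46 after quantile normalization, adjusted p = 0.00084).

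Dnajc3 (p58IPK, an inhibitor of the kinase Perk and cochaperone of BiP) had 375, 463 and 378 in Tk2-/- muscle, against 285, 369 and 284 in Tk2+/+ muscle. These groups are separated by a narrow gap (0.36 ± 0.12, adjusted p = 0.041), and the call was lost after quantile normalization (adjusted p = 0.0565) and in 5 of 12 fits with 1 array left out (without Tk2-/- muscle replicate 2 or 3, Tk2+/+ muscle replicate 1 or 3, or Tk2-/- heart replicate 1). Dnajb14, a relative of Dnajb12 in the same membrane, fell in both tissues, at -0.37 in muscle and -1.04 in heart (-0.34 and -0.46 after quantile normalization). Dnajb11 (ERdj3) had a log2 fold change of 0.03 in muscle (adjusted p = 0.904), and in heart -0.79 on deposited values and -0.11 after quantile normalization (adjusted p = 0.428). The other 4 ER members, Dnajc10 (ERdj5, a disulfide reductase), Dnajc16, Dnajc18 and Dnajc25, overlapped between genotypes in muscle (-0.20 to 0.13). In heart they were lower by 0.50 to 0.80 on deposited values and passed no test after quantile normalization (-0.16 to 0.20).

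**Figure D3:**
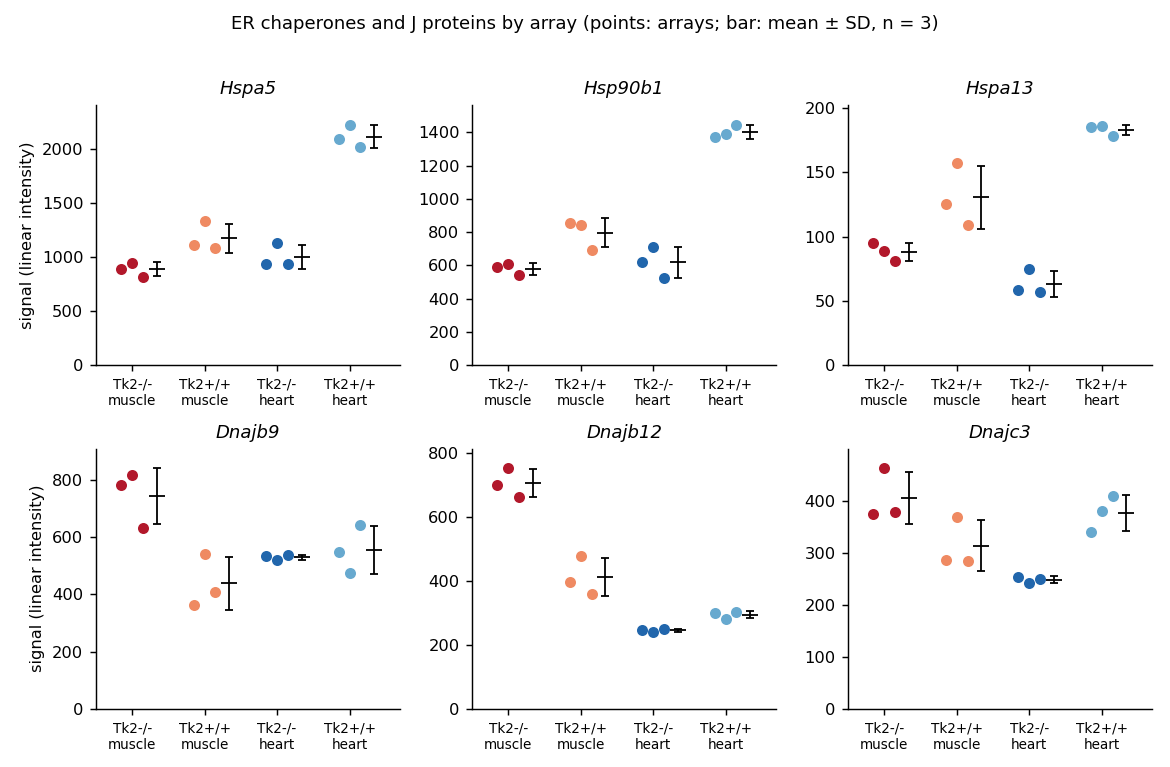
Signal (linear intensity, vertical axes from 0) of 6 ER members on each array, by tissue and genotype, with the mean ± SD of 3 arrays. Hspa5, Hsp90b1 and Hspa13 are lower in Tk2-/- mice in both tissues, whereas Dnajb9 and Dnajb12 are higher in Tk2-/- muscle and in heart lie near or below Tk2+/+ on these deposited values.

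The mitochondrial chaperonin pair passed the test in heart and not in muscle. Hspd1 (Hsp60, the ring) and Hspe1 (Hsp10, its lid) are transcribed in opposite directions from 1 stretch of DNA, shown here because both fell in heart and because it holds a heat shock element. In the sequences below capitals mark GAANNTTCNNGAA on either strand, also from RefSeq (GRCm38.p6). In the first, 2 matches on opposite strands overlap.
Hspe1 and Hspd1, chr1:55087933-55088147 (+), the 215 bases from the nearest annotated start of Hspd1 to that of Hspe1: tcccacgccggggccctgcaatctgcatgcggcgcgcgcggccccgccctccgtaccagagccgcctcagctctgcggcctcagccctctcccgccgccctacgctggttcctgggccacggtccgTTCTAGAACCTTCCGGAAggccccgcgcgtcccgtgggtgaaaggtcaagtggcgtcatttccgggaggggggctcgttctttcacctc
Hsph1, chr5:149636282-149636306 (-), positions 9 to 33 after the start: tgcagaTTCTGGAAAGTTCtcctca
The motif is found in 0.603% of the 32851 windows and in those of 4 of the 61 chaperone genes with a window (Dnajb6, Hspd1, Hspe1 and Hsph1). Dnajb6, whose sequence is not shown, was called higher in muscle (0.49), and in heart had -0.57 on deposited values and 0.11 after quantile normalization. Here too a match says nothing of binding. Hspa1a and Hspa1b were not among the genes searched.

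Hspd1 had 645, 1036 and 518 in Tk2-/- heart, against 1990.3, 2074 and 1919.7 in Tk2+/+ heart. Every Tk2-/- array was lower, with replicate 2 the highest of them, and the log2 fold change was -1.48 ± 0.18 (adjusted p = 8.91e-06; -0.82 after quantile normalization, adjusted p = 0.000844). In muscle it had 1111, 1191 and 1097 in Tk2-/- mice, against 916, 1151 and 937 in Tk2+/+ mice, which overlap (0.18 ± 0.18, adjusted p = 0.57). Hspe1 had 423, 549 and 369.9 in Tk2-/- heart, against 1041, 934 and 1031 in Tk2+/+ heart (-1.15 ± 0.13, adjusted p = 7e-06; -0.46 after quantile normalization). Its muscle values were 883, 990.1 and 902 in Tk2-/- mice, against 741, 844 and 642 in Tk2+/+ mice, without overlap but short of the threshold (0.32 ± 0.13, adjusted p = 0.112). Both genes have a second probe set, and it gave log2 fold changes of -1.55 for Hspd1 and -1.20 for Hspe1 in heart (-0.86 and -0.51 after quantile normalization). Which copy of each gene a probe set reads was not tested.

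Hspa9 encodes mortalin, the Hsp70 that pulls proteins into the mitochondrial matrix. It had 2251, 2880.05 and 2314 in Tk2-/- muscle, against 1599, 2066 and 1673 in Tk2+/+ muscle, and 1551, 2052 and 1284 in Tk2-/- heart, against 2947, 2958 and 2752 in Tk2+/+ heart. The Tk2-/- arrays were the higher ones in muscle and the lower ones in heart. The muscle change of 0.48 ± 0.15 (adjusted p = 0.0363) was 0.30 after quantile normalization (adjusted p = 0.0674), and the heart change of -0.84 ± 0.15 was then -0.27 (adjusted p = 0.0888), so neither call held. On deposited values the muscle call was also lost without Tk2-/- muscle replicate 2 or 3, Tk2+/+ muscle replicate 1 or 3, or Tk2-/- heart replicate 1, which enters through the shared spread (adjusted p up to 0.176). Dnaja3 (Tid1, the J protein of mortalin) had 289, 391 and 222 in Tk2-/- heart, against 747, 729 and 753 in Tk2+/+ heart (-1.30 ± 0.16, adjusted p = 8.66e-06; -0.61 after quantile normalization), and overlapping values in muscle (0.05, adjusted p = 0.882). Dnajc19 (Tim14) and Dnajc15, J proteins of the import motor, and Dnajc11, which associates with the cristae organizing complex, fell in heart on deposited values (-1.23 for Dnajc15 and -1.13 for Dnajc11) and after quantile normalization, where they had -0.41, -0.54 and -0.46. With that scaling they were also lower in muscle, at -0.55, -0.49 and -0.31. A second, dimmer probe set of Dnajc19 gave -0.82 in heart on deposited values. After quantile normalization this set did not pass in heart (-0.13, limma adjusted p = 0.192 over all probe sets) and did in muscle (-0.43, adjusted p = 0.00113). The inner membrane J protein Dnajc30 and Dnajc4 fell in heart on deposited values (-0.72 and -0.88) and passed no test there after quantile normalization (-0.01 and -0.17), while Dnajc4 was then lower in muscle (-0.29, adjusted p = 0.0149). Dnajc28, assigned to mitochondria and Golgi, was the 1 mitochondrial gene called higher in heart after quantile normalization (0.49, adjusted p = 0.00715).

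Of the cytosolic machines, Hsph1 (Hsp110, an exchange factor of Hsp70) had the largest decrease of the 74 in heart. It had 34.3, 48.9 and 35.9 in Tk2-/- heart, against 174, 323 and 206 in Tk2+/+ heart (-2.13 ± 0.21, adjusted p = 2.29e-06; -1.58 after quantile normalization, adjusted p = 0.000257). In muscle it had 215, 114 and 152 in Tk2-/- mice, against 221, 284 and 220.4 in Tk2+/+ mice, where the arrays did not overlap but the test was not passed (-0.58 ± 0.21, adjusted p = 0.0659). Its relatives Hspa4 (-1.03) and Hspa4l (adjusted p = 1.04e-05) were lower in heart on deposited values and after quantile normalization, where they had -0.35 and -0.33 (adjusted p = 0.00798 and 0.0372).

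Hspa8 (Hsc70, the constitutive Hsp70) had 4105, 4356 and 3962 in Tk2-/- muscle, against 4016, 5096 and 3892 in Tk2+/+ muscle. These overlap (-0.06, adjusted p = 0.801; -0.22 after quantile normalization, adjusted p = 0.0192). In heart it had 3564, 3729.8 and 3530.0 in Tk2-/- mice, against 5423, 5797 and 5420.4 in Tk2+/+ mice (-0.62 on deposited values, -0.14 after quantile normalization, adjusted p = 0.123). The other probe sets of Hspa8 gave -0.24 and -0.22 in muscle after quantile normalization (limma adjusted p = 0.0338 and 0.0581 over all probe sets). Hsp90aa1, the inducible cytosolic Hsp90, had 328, 387 and 345 in Tk2-/- heart, against 767, 986 and 866 in Tk2+/+ heart, with no overlap (-1.26 ± 0.12, adjusted p = 1.61e-06; -0.57 after quantile normalization). In muscle its log2 fold change was -0.25 (adjusted p = 0.157), and -0.32 after quantile normalization (adjusted p = 0.0337).

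Several J proteins of the cytosol followed Hsp90aa1 in heart. Dnaja1, which serves Hsp70 in refolding, had 454, 499 and 421 in Tk2-/- heart, against 1190.4, 1379.98 and 1281 in Tk2+/+ heart (-1.46 ± 0.12, adjusted p = 6.26e-07; -0.78 after quantile normalization). Dnajb1 (Hsp40), a heat-inducible partner of Hsp70, had 51.75, 72.2 and 53.2 in Tk2-/- heart, against 129.6, 181 and 174 in Tk2+/+ heart. It too was lower without overlap (-1.24 ± 0.15; -0.63 after quantile normalization, adjusted p = 0.00634), and in muscle its log2 fold change was -0.01. Hspa2, an Hsp70 known from spermatocytes, had 56.9, 66.1 and 45.0 in Tk2-/- heart, against 141, 153 and 188 in Tk2+/+ heart (-1.30 ± 0.13; -0.69 after quantile normalization). Dnaja2, a relative of Dnaja1, had instead 1184, 1542 and 1272 in Tk2-/- muscle, against 791, 964 and 769 in Tk2+/+ muscle (0.65 ± 0.12, adjusted p = 0.00123). Dnajc21 and Dnajc2, J proteins used in the making and work of ribosomes, rose in muscle by 0.78 and 0.60, and after quantile normalization they and Dnaja2 were higher in heart too (0.38, 0.40 and 0.23). On deposited values Dnajc21 and Dnaja2 were lower in heart, at -0.30 and -0.45, and the Dnajc21 call was lost in 7 of 12 fits with 1 array left out.

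Of the remaining J proteins, Dnajb6, which keeps protein from aggregating and is mutated in a limb-girdle myopathy of humans, had 1567, 1512 and 1362 in Tk2-/- muscle, against 984, 1185 and 977 in Tk2+/+ muscle. Its muscle groups did not overlap (0.49 ± 0.11, adjusted p = 0.0047; 0.32 after quantile normalization), and in heart it had a log2 fold change of -0.57 on deposited values and 0.11 after quantile normalization (adjusted p = 0.272). Its other bright probe sets gave 0.45 to 0.47 in muscle and -0.60 to -0.63 in heart on deposited values. The dimmest, with a mean signal of 30.4, gave 0.30 in muscle (limma adjusted p = 0.214 over all probe sets). In heart this dim set gave 0.27 on deposited values and 0.42 after quantile normalization (adjusted p = 0.0422). Dnajc27 (Rbj, a J domain joined to a Rab-like GTPase) had 149, 95.7 and 88.4 in Tk2-/- muscle, against 168, 213 and 187 in Tk2+/+ muscle, all Tk2-/- arrays being lower (-0.72 ± 0.16, adjusted p = 0.0037). In heart it had -0.80 on deposited values and -0.37 after quantile normalization (adjusted p = 0.066). Dnajc24 (Dph4, used in diphthamide synthesis) fell in both tissues under both treatments of the data, at -0.46 in muscle and -1.12 in heart (-0.38 and -0.58 after quantile normalization). Dnajc12, a J protein of amino acid hydroxylases, fell in muscle (-0.47, adjusted p = 0.00903; 0.0601 without Tk2-/- muscle replicate 2), and its direction in heart turned with the scaling (-0.39 and 0.09). Hspa12a, a distant Hsp70 relative, had 78.5, 106 and 59.6 in Tk2-/- heart, against 275, 243 and 229 in Tk2+/+ heart (-1.47 ± 0.15; -0.82 after quantile normalization), and in muscle it did not pass (-0.31, adjusted p = 0.155). The stress-inducible Dnajb4 fell in heart by 1.17 (0.49 after quantile normalization), and its relative Dnajb5 was called there on deposited values and not after quantile normalization (-0.39, adjusted p = 0.094). Of the 11 members with a mean signal under 64, which are testis, neuronal and nuclear genes for the most part, Dnajb7 was the one called in muscle (0.40, with means of 28.9 in Tk2-/- and 17.9 in Tk2+/+ mice).

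The 7 subunits of the CCT ring whose symbols start with Cct (Cct2, Cct3, Cct4, Cct5, Cct6a, Cct7 and Cct8) spanned -0.20 to 0.37 in muscle. The ring folds actin and tubulin. Its remaining subunit, Tcp1, lies outside the choice by symbol and had 0.27 in muscle (adjusted p = 0.134) and -0.90 in heart (-0.21 after quantile normalization, adjusted p = 0.0292). Cct2 and Cct4 were called higher in muscle, by 0.32 (adjusted p = 0.0442) and 0.37 (adjusted p = 0.0169), and with 1 array left out the Cct2 call was lost in 10 of 12 fits, all but those without Tk2+/+ muscle or Tk2+/+ heart replicate 2. The Cct4 call was lost without Tk2-/- muscle replicate 2 or Tk2+/+ muscle replicate 3. In heart all 7 were lower on deposited values, by 0.51 to 1.15, and 4 of the 7 after quantile normalization (Cct3, Cct5, Cct6a and Cct8), where the range was -0.46 to 0.17. Cct3 had 245, 312 and 245 in Tk2-/- heart, against 648, 586 and 598 in Tk2+/+ heart. The direction of Cct4 depended on the scaling, with -0.51 on deposited values and 0.17 after quantile normalization (adjusted p = 0.175). Cct6b and Cct8l1, relatives not part of this ring in most tissues, had signals of 6.93 to 25.8 and passed no genotype test.

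**Figure D4:**
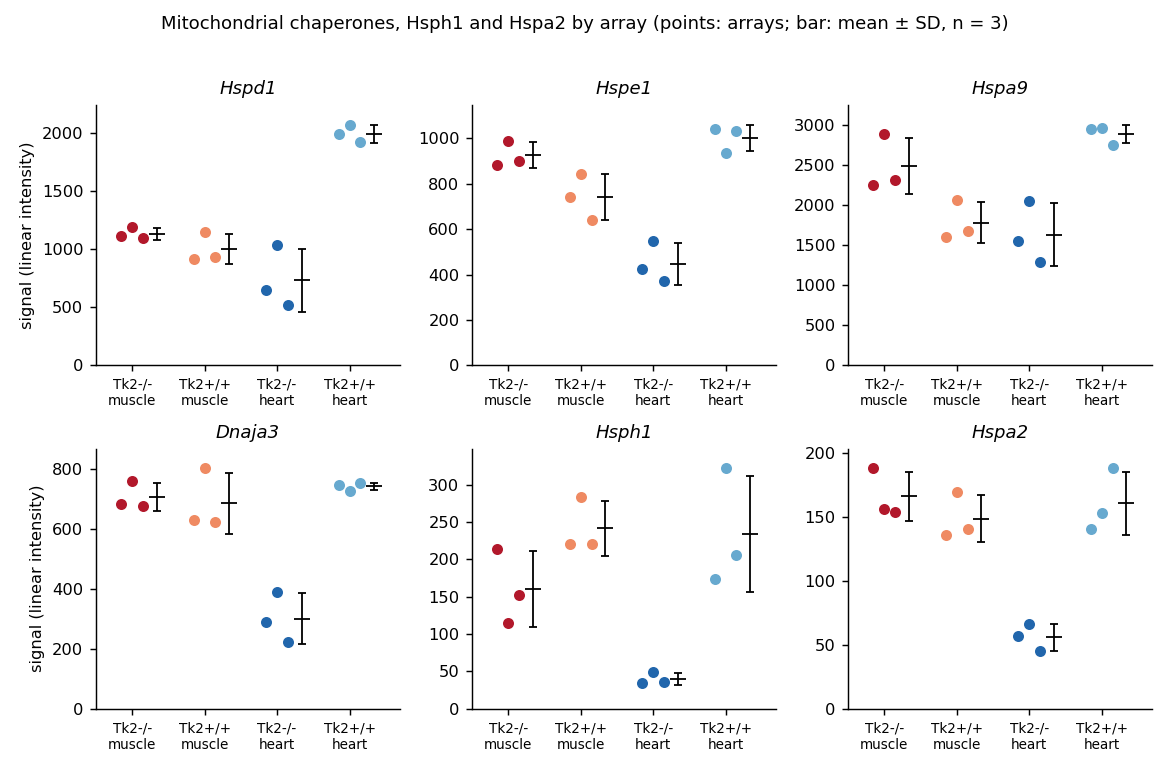
Signal (linear intensity, vertical axes from 0) of 4 mitochondrial chaperones, Hsph1 and Hspa2 on each array, by tissue and genotype, with the mean ± SD of 3 arrays. In all 6 panels the 3 Tk2-/- heart arrays lie below the 3 Tk2+/+ heart arrays, while in muscle the genotypes overlap for Hspd1, Dnaja3 and Hspa2.

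Whether the 2 tissues differed was tested as the genotype effect in muscle minus that in heart. On deposited values 59 of the 74 had a higher effect in muscle (79.7%, beside 41.3% of all genes), 36 of the 37 brighter ones among them (97.3%, beside 84.1% of brighter genes), and 0 had a lower one in limma (0 also at an unadjusted p under 0.05; 1.39% of all genes). After quantile normalization 7 were higher (9.5%, beside 5.14% of all genes) and 1 was lower (beside 4.98%), and bringing all 12 arrays to 1 distribution gave 7 and 1 as well (beside 5.19% and 4.93%). Of the 37 brighter ones 16.2% were higher and 2.7% lower after quantile normalization within tissues. What part the signal level had in these shares was not tested. The 7 were Hspb1, with a difference of 0.83 (adjusted p = 0.00713), Hspa2 with 0.85 (0.00534), Hspe1 with 0.65 (0.00515), Hspd1 with 0.86 (0.0174), Hspb7 with 0.67 (0.0256), Dnaja3 with 0.55 (0.0389) and Hspa9 with 0.56 (0.0418). So 4 of the 7 were mitochondrial, out of 10 mitochondrial genes measured, and 0 of the 12 ER genes passed in either direction (11 of them did on deposited values). In the limma fit over all probe sets, Dnaja3 (adjusted p = 0.0701) and Hspa9 (0.0599) did not pass after quantile normalization. Hspd1 (0.0437) and Hspe1 (0.0134) passed there. The 1 that was lower was Dnajc7 (Tpr2, a cochaperone of Hsp70 and Hsp90), with a difference of -0.52 (adjusted p = 0.0321), where deposited values gave 0.29 (adjusted p = 0.175). Over all probe sets Dnajc7 did not pass after quantile normalization (-0.50, limma adjusted p = 0.0629). Hsph1 had a large difference that did not pass after quantile normalization (0.99, adjusted p = 0.068).

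Setting the 2 genotype tests side by side after quantile normalization, 13 of the 74 were called lower in both tissues, beside 8.03% of all genes, and 5 higher in both (Dnaja2, Dnajb9, Dnajb12, Dnajc2 and Dnajc21), beside 6.75%. A further 15 were called lower in heart without a call in muscle, beside 7.40%, and 0 were called in opposite directions, beside 0.452% higher in muscle and lower in heart and 0.425% the other way. On deposited values 9 were called higher in muscle and lower in heart, beside 5.98% of all genes, 8 lower in both, beside 9.42%, 0 higher in both, beside 0.840%, and 0 lower in muscle and higher in heart, beside 0.0319%. The tissues of a genotype may come from the same mice, which the labels do not say.

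**Figure D5:**
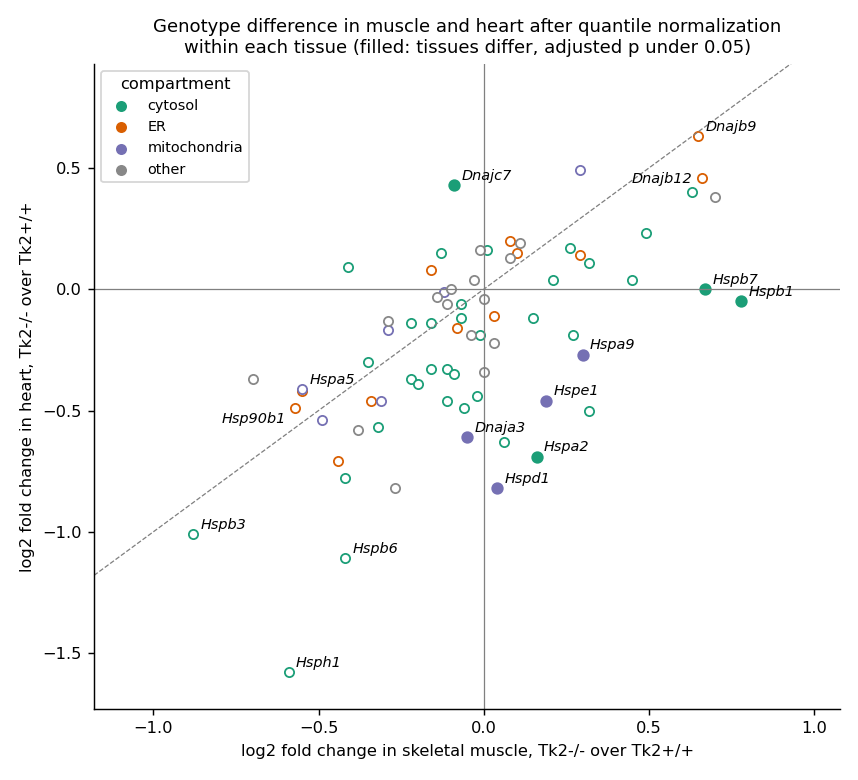
Log2 fold change of Tk2-/- over Tk2+/+ mice for the 74 chaperone genes after quantile normalization within each tissue, coloured by compartment, with muscle on the horizontal and heart on the vertical axis. Filled points are the 8 genes whose genotype effect differed between the tissues at an adjusted p under 0.05, and the dashed line marks equal change. The ER genes lie near that line (differences of -0.24 to 0.27), and the filled mitochondrial genes lie below it.

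The tissues were also compared within each genotype. In Tk2+/+ mice 16 of the 74 were higher in skeletal muscle than in heart and 29 lower, beside 30.6% and 18.4% of all genes (the 74 had 21.6% and 39.2%). With all 12 arrays brought to 1 distribution it was 12 and 28, beside 19.4% and 21.4%, and with each tissue scaled apart it was 32 and 12, beside 51.7% and 9.73%. Scaling each tissue apart leaves muscle and heart on different distributions. Its counts between tissues, here and for Tk2-/- mice, therefore do not compare them on 1 scale. Hspa1l, an Hsp70 described as testis-enriched and neighbour of Hspa1a and Hspa1b, had 302, 420.4 and 314 in Tk2+/+ muscle, against 83.3, 88.0 and 111 in Tk2+/+ heart (1.71 ± 0.19, adjusted p = 4.97e-06). Hspb3 and Dnajc27 were the next largest, at 1.58 and 1.26. A dimmer second probe set of Hspa1l gave 0.22 (adjusted p = 0.177 over all probe sets), and since the Hsp70 genes are near-identical in places, what the brighter one reads was not tested. Hspa4l was the most heart-weighted, with 59.0, 73.5 and 53.4 in Tk2+/+ muscle, against 263, 247.5 and 239.65 in Tk2+/+ heart (-1.78 ± 0.12, adjusted p = 1.73e-08). It was followed by Hsp90aa1 at -1.19, Hspa12a and Hspd1 at -0.99, Hspa5 at -0.84 and Dnajb1 at -0.83. By compartment, 6 of 10 mitochondrial and 7 of 12 ER genes were lower in Tk2+/+ muscle than in Tk2+/+ heart.

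In Tk2-/- mice 56 of the 74 were higher in skeletal muscle than in heart and 1 lower on deposited values, beside 59.5% and 4.55% of all genes. With all 12 arrays brought to 1 distribution it was 21 and 19, beside 18.8% and 19.8%, and with each tissue scaled apart 41 and 8, beside 50.9% and 9.51%. Hspa1l had 675, 378 and 365 in Tk2-/- muscle, against 34.1, 44.95 and 38.4 in Tk2-/- heart (3.10 ± 0.19, adjusted p = 4.28e-09; 2.56 over 1 distribution). Replicate 1 of Tk2-/- muscle stood apart as the highest, as it did for Hsph1. Hspb3 at 2.31, Hspb1 at 1.70, Dnajb5 at 1.65, Hsph1 at 1.63 and Dnajb12 at 1.46 came next, and all 5 also passed over 1 distribution. Hspb1 differed between Tk2+/+ muscle and Tk2+/+ heart by 0.02 on the log2 scale (adjusted p = 0.922). Hspa4l was again lower in muscle, with 44.0, 46.7 and 55.8 in Tk2-/- muscle, against 126, 130.3 and 96.6 in Tk2-/- heart (-1.04 ± 0.12; -1.60 over 1 distribution).

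The inducible Hsp70 genes Hspa1a and Hspa1b share 3 probe sets, which were fitted among all probe sets and looked at after their values were seen. The brightest had 898, 512 and 468 in Tk2-/- muscle, against 279, 438 and 358 in Tk2+/+ muscle, and 80.6, 83.5 and 74.1 in Tk2-/- heart, against 127, 362 and 323 in Tk2+/+ heart. Tk2-/- muscle was higher without overlap, replicate 1 most of all, but short of the threshold (0.74 ± 0.32, adjusted p = 0.168), and in heart the change was -1.47 ± 0.32 (adjusted p = 0.00217; -0.86 after quantile normalization, adjusted p = 0.0856). The second brightest had 391, 169 and 178 in Tk2-/- muscle, against 73.4, 81.1 and 82.8 in Tk2+/+ muscle (1.36 ± 0.40, adjusted p = 0.0395). Which of these genes the probes read was not tested.

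Genes that work with these chaperones were taken as lists. Beside their counts, 11.6% of all genes were called higher and 10.9% lower in muscle on deposited values (24.8% and 12.4% of brighter genes). In heart 1.99% were higher and 49.0% lower on deposited values, and 84.8% of brighter genes were lower. After quantile normalization 16.1% were higher and 15.9% lower in heart (21.7% and 23.7% of brighter genes). Whether a list differed from these shares was not tested. Of 4 measured heat shock factors and stress regulators, Nfe2l2 (0.59) and Hsf2 (0.49) rose in muscle and 0 of 4 fell (1, Hsbp1, after quantile normalization). In heart 3 fell and 0 rose on deposited values, and 0 fell and 1 rose after quantile normalization. Of 20 genes in a list of partners of Hsp70 and Hsp90, which also holds the CCT subunit Tcp1, 5 rose and 2 fell in muscle, and 1 rose and 11 fell in heart after quantile normalization (19 on deposited values). Fkbp5, an Hsp90 cochaperone and glucocorticoid target, was the one that rose in both, by 3.35 in muscle and 2.07 in heart (2.60 in heart after quantile normalization). Stip1, which links Hsp70 with Hsp90, and Fkbp4, a relative of Fkbp5, fell in heart, at -1.63 and -1.59 (-0.95 and -0.89 after quantile normalization). Of 20 genes of ER folding and the unfolded protein response, 6 rose and 7 fell in muscle. Serpinh1, the collagen chaperone, changed most, with -1.41 in muscle and -2.18 in heart (-1.49 after quantile normalization), and Manf and Sdf2l1, ER stress targets, fell in both. Atf6, a sensor of the unfolded protein response, rose in muscle by 0.73, and Herpud1, which acts in ER-associated degradation, rose in both tissues (0.65 and 0.67 on deposited values, 0.50 and 1.31 after quantile normalization). Serpinh1 is made by fibroblasts, of whose 9 listed genes 7 were lower and 1 higher in Tk2-/- muscle and likewise in Tk2-/- heart after quantile normalization, and their part in its change was not tested. Of 14 genes of mitochondrial folding and proteolysis, Clpx (0.74), the protease Lonp1 (0.49) and the iron-sulfur cochaperone Hscb (0.31) rose in muscle. Bcs1l, an assembly factor of respiratory complex III, fell there (-0.99). In heart 13 of the 14 fell on deposited values and 5 after quantile normalization, Bcs1l again most (-1.68, and -1.02 after quantile normalization). Of 5 prefoldin subunits, which hand clients to CCT, 0 rose and 1 fell in muscle, and in heart 5 fell on deposited values and 0 after quantile normalization.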

How the data were processed

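RNA of 12 tissue samples was hybridised to 1 array each. The authors deposited 1 linear intensity per probe set and array, made with Expression Console and its PLIER method per the labels. The software versions, and how the arrays were scaled to each other, are not given in the sources used here. Of 35556 probe sets, 21218 carried 1 gene symbol, 1881 several and 12457 none in the platform annotation. The brightest probe set was kept for each of 18820 genes.

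An offset of 16 was added to the deposited intensity before log2, so fold changes of dim genes are understated. One limma model with 4 group means (8 residual degrees of freedom) was fitted to all genes, and p-values were adjusted by Benjamini-Hochberg over all genes, with a threshold of 0.05. The 5 contrasts tested were genotype in each tissue, the difference of the 2 genotype effects, and tissue in each genotype. The methods' t-test and its 2-fold limit were run as alternatives, as were median centring, quantile normalization within tissues and over all arrays, an offset of 1, removal of genes under 64, the mean of probe sets, other priors, fits of a tissue alone, a replicate block and leaving out each array. Array number limits the precision. Analyses used R 4.3.3 with limma 3.58.1 and Python 3.11.15 with pandas 2.3.3 and matplotlib 3.10.9.

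The members and all gene lists were chosen with earlier results of these data known. By rule the text names the main chaperone of each family and compartment, up to 6 genes with the largest change each way in a comparison among called genes whose arrays do not overlap, and up to 3 genes of each pathway list. Hspb9, Dnajb6, the remaining ER, mitochondrial and CCT genes and a few J proteins outside it were added after their values were seen. Promoter sequences are RefSeq's, with windows from 250 bases before each start.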

Additional observations from a re-analysis of the deposited data

Results flagged for a closer look

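The genotype effect differed between the tissues for many chaperone genes. The effect was higher in muscle than in heart for 59 of the 74 genes on deposited values and for 7 after quantile normalization within tissues. As differences of log2 fold changes, the 7 had 1.68 and 0.83 (Hspb1), 1.67 and 0.86 (Hspd1), 1.47 and 0.65 (Hspe1), 1.44 and 0.85 (Hspa2), 1.42 and 0.67 (Hspb7), 1.35 and 0.55 (Dnaja3) and 1.32 and 0.56 (Hspa9), each given first on deposited values and then after quantile normalization, and all of these values passed the limma test. That test ran over genes. Over all probe sets Hspa9 (limma adjusted p = 0.0599) and Dnaja3 (0.0701) did not pass after quantile normalization. Hsph1 differed by 1.56 on deposited values and did not pass after quantile normalization. Dnajc7 differed the other way, by -0.52, after quantile normalization only, and did not pass over all probe sets (limma adjusted p = 0.0629).

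Probe sets shared by Hspa1a and Hspa1b, which were outside the main measurement, differed between the tissues too, by 2.21 for the brightest and 2.78 for the second on deposited values. After quantile normalization these were 1.51 (adjusted p = 0.0902) and 2.53 (adjusted p = 0.0283). The second was also higher in Tk2-/- than in Tk2+/+ muscle, by 1.36 (adjusted p = 0.0395), with 391 on Tk2-/- muscle replicate 1 and 169 and 178 on the other Tk2-/- muscle arrays. Its Tk2+/+ heart arrays spread widely, at 30.8, 175 and 103. The third and dimmest set of these genes gave 0.15 in muscle and -0.24 in heart (0.21 and -0.10 after quantile normalization).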

How the results depend on the processing

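Scaling decided most counts in heart and between tissues, and the cause was not tested. In muscle 13 genes were higher and 8 lower on deposited values. The lower count was 17 after quantile normalization within tissues and 17 over 12 arrays. The methods' t-test gave 0 higher and 0 lower after adjustment (11 and 9 unadjusted). Of all 18820 genes it gave 366 and 294 after adjustment (2473 and 2667 unadjusted). In heart, against 0 higher and 59 lower, median centring gave 11 higher, quantile normalization 7 higher and 28 lower within tissues and 8 and 28 over 12 arrays, and an offset of 1 gave 1 higher. The difference of the effects gave 38 higher and 5 lower with median centring, and 7 and 1 with either quantile normalization. For Tk2+/+ muscle over Tk2+/+ heart the higher count was 9 with median centring, 32 with quantile normalization within tissues and 7 without dim genes, and the lower count 12 within tissues. For Tk2-/- muscle over Tk2-/- heart it was 26 higher and 16 lower with median centring, 21 and 19 over 12 arrays, and 8 lower within tissues.

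Leaving out 1 array gave 8 to 15 higher and 6 to 11 lower in muscle (8 without Tk2-/- muscle replicate 2), 0 higher and 57 to 61 lower in heart, 55 to 60 higher and 0 to 1 lower for the difference, 11 to 17 and 22 to 34 between Tk2+/+ tissues, and 50 to 56 and 1 between Tk2-/- tissues. Cct2 lost its muscle call in 10 of 12 such fits, Dnajc3 and Hspa9 in 5 each, Cct4, Hspa5 and Hsp90b1 in 2 each and Dnajc12 in 1.

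Among the genes the text names by rule, directions turned in heart, with quantile normalization within tissues and over 12 arrays, for Cct4 (0.17, 0.17), Dnaja2 (0.23, 0.23), Dnajb12 (0.46, 0.47), Dnajb9 (0.63, 0.64), Dnajc12 (0.09, 0.09), Dnajc21 (0.38, 0.38) and Dnajc3 (0.14, 0.14), and with median centring for Dnajb9 (0.39), Dnajc12 (0.06) and Dnajc21 (0.14). Over all 74, 12 of the 59 genes called lower in heart had a log2 fold change above 0 after quantile normalization within tissues, 2 of them called higher (Dnaja2 and Dnajc21). The difference for Dnajc7 turned to -0.52 in both. The replicate block gave 14 higher and 10 lower in muscle and 0 and 57 in heart, and a block for animals shared by tissues 59 and 0 for the difference, 14 and 29 between Tk2+/+ tissues and 54 and 1 between Tk2-/- tissues. Deviations of same-numbered arrays correlated at -0.19 to 0.13. Low values can also arise where paired samples differ through tissue or array, so whether the numbers pair samples was not settled.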

Other observations

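Probe sets outside the single-gene measurement gave further values, which were chosen after they were seen. A set that carries the names of the small nucleolar RNAs Snord14c and Snord14d, which lie in introns of Hspa8, together with Hspa8, had 189, 87.8 and 92.1 in Tk2-/- muscle, against 249, 324 and 299 in Tk2+/+ muscle, and 83.6, 90.3 and 97.3 in Tk2-/- heart, against 384.5, 337 and 439.9 in Tk2+/+ heart. Its log2 fold change was -1.21 in muscle (adjusted p = 0.00201) and -1.92 in heart (-1.28 after quantile normalization), where Hspa8 itself had -0.06 and -0.62. Whether the set reads the small RNAs or Hspa8 was not tested.

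Hspb2 and Cryab, small heat shock protein genes that lie side by side, share 2 sets, which in heart gave -0.68 and -0.91 on deposited values and -0.12 and -0.23 after quantile normalization, neither of which passed.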
